A study of Homo sapiens with 21 samples.

Results

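Transcripts of 9 genes of MHC class I antigen presentation were followed over 21 RNA libraries. All came from MV4-11, a line grown from a biphenotypic leukaemia of B-cell and monocytic character with a rearranged KMT2A gene. The 9 genes were the heavy chain genes HLA-B, HLA-C, HLA-E and HLA-F, the light chain gene B2M, the peptide transporter genes TAP1 and TAP2, the loading factor gene TAPBP and the trimming enzyme gene ERAP1. They were found by matching the Ensembl identifiers of the count table to these symbols. All 9 were among the 54042 genes of the table, and all 9 were among the 11610 genes that passed a filter on low counts and were tested.

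There were 7 groups of 3 libraries. Wild type cells were given DMSO, the solvent, or ironomycin for 6 h or for 24 h. Ironomycin, also labelled AM5, is a small molecule derived from salinomycin, and the series title places its action on mitochondrial iron. Cells with a CRISPR knockout (KO) of HK2, which encodes hexokinase 2, received ironomycin for 24 h or DMSO. Cells with a CRISPR KO of PGP, which encodes phosphoglycolate phosphatase, likewise received ironomycin for 24 h or DMSO. The labels give neither the dose of ironomycin nor the time in DMSO, and do not say whether a KO line was 1 clone or a pool. Nor do they state that replicates were grown separately, and the spread behind each p-value may be technical.

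Class I molecules show fragments of a cell's own proteins to CD8 T cells. Proteins are cut by the proteasome, the fragments enter the endoplasmic reticulum through the TAP1 and TAP2 transporter, are shortened there by ERAP1, and are loaded onto a heavy chain bound to B2M while tapasin, the product of TAPBP, holds the complex to the transporter. In many cell types interferons and NF-kB raise transcription of these genes, through short promoter motifs such as the interferon-stimulated response element (ISRE), the kappa B site and the SXY module that NLRC5 acts on. HLA-E presents mainly leader peptides of other class I chains and is read by NK cell receptors.

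After 24 h of ironomycin, HLA-E, B2M, TAP1 and ERAP1 were higher in all 3 genotypes. HLA-B and TAPBP were higher in some comparisons only, and HLA-C, HLA-F and TAP2 passed the main test in none. With the replicate number as a block, HLA-C was also called higher in the PGP KO (edgeR adjusted p = 0.0271). At 6 h, HLA-E and TAP1 had risen in wild type cells. The TAP1 calls at 6 h and in the HK2 KO were lost in several other fits, with a library left out or with other settings. That of the PGP KO was lost in some fits with a library left out. No difference between either KO and wild type passed the test, in DMSO or in the response to ironomycin.

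RefSeq gives promoter sequences, 250 bases before to 50 after a transcript start, for 8 of the 9 genes, in 10 entries on build GRCh38.p14. HLA-E had no entry among the sequences used here, so its promoter was not searched. These windows were searched on both strands for 4 motifs, and 6 promoters are shown. They belong to the 5 genes with an entry that were called higher at 24 h in at least 1 genotype, and to TAP2, which was not. TAP1 and ERAP1 have 2 entries each, of which the first is given. They are the reference genome's sequence, and the HLA alleles of MV4-11 may differ from it. Each is written 5′ to 3′ along its gene, and capitals mark matches to the ISRE core GAAANNGAA or the kappa B site GGGNNTTCC. The HLA-B window is chr6:31357130-31357429 on the minus strand, that of B2M is chr15:44711267-44711566 on the plus strand, and that of TAP1 is chr6:32853655-32853954 on the minus strand. The TAPBP window is chr6:33314029-33314328 on the minus strand, that of ERAP1 is chr5:96807896-96808195 on the minus strand, and that of TAP2 is chr6:32838690-32838989 on the minus strand.
HLA-B: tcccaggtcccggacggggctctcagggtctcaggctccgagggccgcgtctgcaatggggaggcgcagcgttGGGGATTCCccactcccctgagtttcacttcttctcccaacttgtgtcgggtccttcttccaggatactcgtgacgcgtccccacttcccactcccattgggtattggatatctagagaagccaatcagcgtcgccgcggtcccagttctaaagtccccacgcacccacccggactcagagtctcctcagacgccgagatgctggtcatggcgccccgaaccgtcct
B2M: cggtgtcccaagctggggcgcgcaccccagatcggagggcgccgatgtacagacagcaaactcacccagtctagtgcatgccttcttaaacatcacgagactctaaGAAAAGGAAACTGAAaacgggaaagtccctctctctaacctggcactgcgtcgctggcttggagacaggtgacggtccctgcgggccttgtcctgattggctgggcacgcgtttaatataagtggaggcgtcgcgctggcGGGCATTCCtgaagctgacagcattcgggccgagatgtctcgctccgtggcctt
TAP1: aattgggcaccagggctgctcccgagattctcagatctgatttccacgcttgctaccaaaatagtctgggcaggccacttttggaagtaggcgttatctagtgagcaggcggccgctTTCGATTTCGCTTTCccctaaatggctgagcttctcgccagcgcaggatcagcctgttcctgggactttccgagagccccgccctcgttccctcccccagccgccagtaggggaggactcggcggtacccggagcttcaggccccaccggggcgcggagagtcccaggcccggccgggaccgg
TAPBP: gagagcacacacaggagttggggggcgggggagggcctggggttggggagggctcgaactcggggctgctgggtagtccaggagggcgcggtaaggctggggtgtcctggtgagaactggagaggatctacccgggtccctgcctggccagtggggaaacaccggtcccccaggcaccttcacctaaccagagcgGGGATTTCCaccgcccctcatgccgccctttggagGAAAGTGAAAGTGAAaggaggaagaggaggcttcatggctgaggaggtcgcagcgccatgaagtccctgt
ERAP1: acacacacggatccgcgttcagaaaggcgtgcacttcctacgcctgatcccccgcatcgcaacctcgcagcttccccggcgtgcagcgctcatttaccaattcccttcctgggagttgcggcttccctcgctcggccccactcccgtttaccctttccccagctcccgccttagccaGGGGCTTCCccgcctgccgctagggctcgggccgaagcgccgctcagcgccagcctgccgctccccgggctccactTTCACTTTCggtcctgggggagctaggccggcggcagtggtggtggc
TAP2: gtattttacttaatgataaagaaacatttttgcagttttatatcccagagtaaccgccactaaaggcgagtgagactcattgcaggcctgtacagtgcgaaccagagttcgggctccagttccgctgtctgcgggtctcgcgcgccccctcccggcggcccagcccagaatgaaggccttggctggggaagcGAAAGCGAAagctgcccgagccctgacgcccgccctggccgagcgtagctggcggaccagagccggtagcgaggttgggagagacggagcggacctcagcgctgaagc

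An ISRE core lay in the promoters of 6 of the 8 genes searched, against 8.1% of 34943 RefSeq promoters of the same length. These were HLA-F, B2M, TAP1, TAP2, TAPBP and ERAP1. B2M, TAP1 and TAPBP each held a pair of ISRE matches that overlapped each other. In B2M these began at -144 and -138 from the start, in TAP1 at -133 and -127, and in TAPBP at -20 and -14. A kappa B match lay in the promoters of HLA-B, B2M, TAPBP and ERAP1, against 6.57% of all promoters. The cyclic AMP response element core TGACG was found in HLA-B, HLA-C, B2M and TAP2 (24.5% of all promoters), and the Y box ATTGG in 6 of the genes (34.6%). TAP2 held its match at -58 and HLA-F at -155, so genes that were not called at 24 h held an ISRE core as well as genes that were. A window without a match lacks only these letters, and a match is a stretch of letters, not a measured binding site.

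Counts per library lay between 3829274 and 6069264 (median 4823817), and levels are given as CPM, counts scaled to a common library size after TMM adjustment. The myeloid markers CD33 and FLT3 had group means of 76.8 to 95.7 and 222 to 352 CPM and the KMT2A-linked HOXA9 had 52.7 to 65.5 CPM, while CD14 had at most 0.322 CPM. HK2 stood at 22 ± 2.49 CPM in the HK2 KO and 52.6 ± 14.7 CPM in wild type DMSO, and PGP at 75.4 ± 7.1 CPM in the PGP KO and 90.6 ± 4.49 CPM in wild type DMSO. A transcript end does not report whether an edit upstream was made. Replicate 2 of wild type at 6 h stood apart: over all genes tested, its deviation from the mean of the other replicates had an SD of 0.675 on the log2 scale, against 0.332 to 0.480 in the other libraries. Relative to the mean of replicates 1 and 3, its log2 level was -1.91 for HLA-C, -1.60 for TAP2, -1.46 for HLA-F, -0.92 for HLA-B, -0.45 for ERAP1 and -0.36 for B2M. It was 0.74 for TAP1, 0.51 for TAPBP and 0.01 for HLA-E, so the library was low for some of the 9 genes and high for others.

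HLA-F had 3 to 33 counts per library and TAP1 had 12 to 50, which limits the precision of both. The last 300 bases of the longest coding transcript of each gene hold 251 words of 50 bases, and 0 of these occur in transcripts of another gene for 8 of the 9. For HLA-F, 3 words (1.2%) do. HLA transcripts that differ from the reference sequence may still be counted incompletely or for a neighbour, and since the sources used here give no strand setting for the counting, reads of overlapping antisense genes cannot be told apart.

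**Figure D1:**
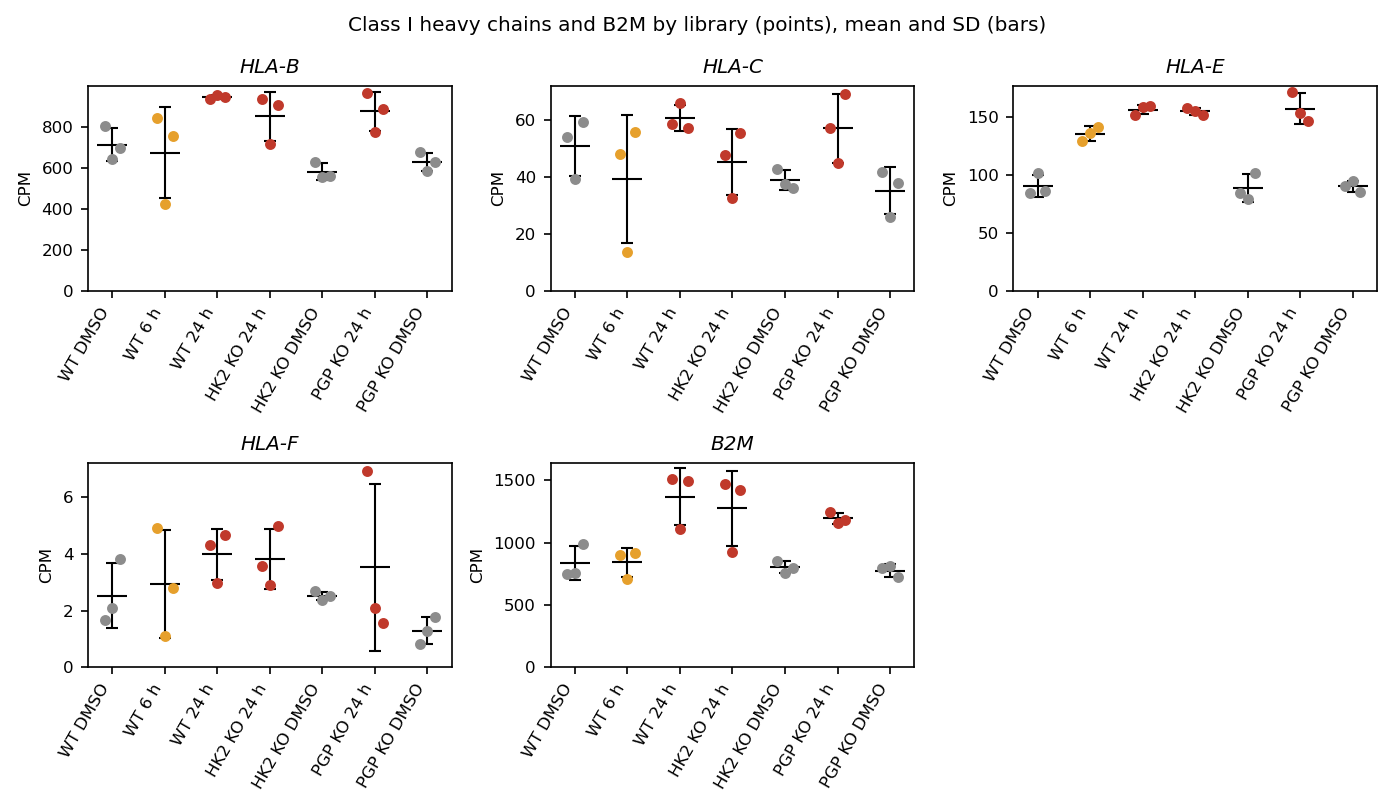
CPM of the 4 heavy chain genes and B2M in each library (points: grey DMSO, yellow ironomycin for 6 h, red ironomycin for 24 h), with the mean and SD of each group as black bars. HLA-E and B2M at 24 h sit above the DMSO libraries of the same genotype without overlap, while HLA-F overlaps in wild type and in the PGP KO.

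HLA-E (ENSG00000204592), the non-classical chain read by NK cells, was the 1 heavy chain of the 4 that rose at 6 h, and it stayed higher at 24 h. In wild type cells it had 83.7, 101 and 86.3 CPM in DMSO, 129, 136 and 141 CPM at 6 h and 151, 158 and 159 CPM at 24 h. Every library at either time lay above every DMSO library. The log2 fold change (± SE) was 0.58 ± 0.11 at 6 h against DMSO (edgeR adjusted p = 0.000411) and 0.79 ± 0.11 at 24 h against DMSO (6.47e-06), while 24 h against 6 h gave 0.21 ± 0.11 (0.193). In the HK2 KO it had 157, 154 and 152 CPM at 24 h, against 83.9, 78.8 and 102 CPM in DMSO, a change of 0.81 ± 0.11 (adjusted p = 5.79e-06). In the PGP KO it had 172, 153 and 146 CPM at 24 h, against 90.1, 94.8 and 85.1 CPM in DMSO, a change of 0.80 ± 0.11 (6.25e-06). The fold was thus close to the same size in each genotype, and no library of the DMSO groups reached the level of an ironomycin library. In these bulk libraries a change in the share of cells that express a gene and a change in RNA per cell cannot be told apart.

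B2M (ENSG00000166710), the invariant light chain that every class I molecule needs at the surface, rose between 6 h and 24 h. Wild type cells had 749.7, 759 and 991 CPM in DMSO, 899, 708 and 919 CPM at 6 h and 1508, 1106 and 1494 CPM at 24 h. The 6 h libraries overlapped those of DMSO (0.02 ± 0.15, edgeR adjusted p = 0.956), and all 3 libraries at 24 h lay above both. The change was 0.72 ± 0.16 against DMSO (0.00113) and 0.70 ± 0.16 against 6 h (0.00294). HK2 KO cells had 1471, 927 and 1424 CPM at 24 h, against 855, 756 and 793 CPM in DMSO, and rose by 0.67 ± 0.15 (0.00226). PGP KO cells had 1246, 1156 and 1181 CPM at 24 h, against 796, 810.3 and 719.6 CPM in DMSO, and rose by 0.62 ± 0.16 (0.00356). Replicate 2 was the lowest 24 h library in each genotype, and still lay above the DMSO libraries of its own genotype.

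HLA-B (ENSG00000234745), a classical heavy chain that presents peptides to CD8 T cells, also rose between 6 h and 24 h, but less and with calls that depended on single libraries and on the fit. Wild type cells had 802, 643 and 694 CPM in DMSO, 844, 422 and 756 CPM at 6 h and 934, 957 and 947 CPM at 24 h. The 24 h libraries lay above all others of the genotype and within a narrow range, while 6 h and DMSO overlapped (-0.08 ± 0.17, edgeR adjusted p = 0.772). At 24 h against DMSO the change of 0.41 ± 0.17 missed the threshold (edgeR adjusted p = 0.0718), and passed it when the compared groups were fitted alone (0.00534), with a replicate block (0.0136) and with no low-count filter (0.0200). Against 6 h it was 0.49 ± 0.17 (0.0497), a call lost in the compared groups alone (0.219), with RLE size factors (0.0511) and without replicate 1, 2 or 3 of 24 h (adjusted p 0.0868, 0.110 and 0.118). Without 6 h replicate 2, which had the lowest HLA-B of all libraries, that change was 0.24 (0.221).

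The KO lines gave HLA-B values of the same order. HK2 KO cells had 936, 714 and 904 CPM at 24 h, against 627, 553 and 562 CPM in DMSO, with no overlap and a rise of 0.55 ± 0.17 (edgeR adjusted p = 0.0162). PGP KO cells had 964, 772 and 887 CPM at 24 h, against 674, 584 and 627 CPM in DMSO, again with no overlap and a rise of 0.48 ± 0.17 (0.0341). Both calls sat near the threshold. That of the HK2 KO was lost without replicate 2 or 3 of DMSO or replicate 1 or 3 of 24 h (adjusted p 0.0662, 0.0609, 0.0689 and 0.0655). That of the PGP KO was lost without any replicate of DMSO (0.0508, 0.118 and 0.0921) or without replicate 1 or 3 of 24 h (0.147 and 0.0797).

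HLA-C (ENSG00000204525), the classical chain that also engages killer immunoglobulin-like receptors, and HLA-F (ENSG00000204642), a non-classical chain, did not pass the test in any comparison. HLA-C had 54.1, 39.2 and 59.4 CPM in wild type DMSO, 48, 13.5 and 55.9 CPM at 6 h and 58.8, 66.1 and 57.3 CPM at 24 h. The low 6 h value is that of replicate 2, and without it the 6 h change was 0.03 in place of -0.37. At 24 h against DMSO the log2 fold change was 0.25 ± 0.30 in wild type (edgeR adjusted p = 0.568) and 0.22 ± 0.31 in the HK2 KO (0.629). The HK2 KO libraries had 47.7, 32.5 and 55.6 CPM at 24 h, against 42.9, 37.7 and 36.1 CPM in DMSO, and overlapped. In the PGP KO, HLA-C had 57.2, 44.9 and 69.2 CPM at 24 h, against 41.7, 25.9 and 37.7 CPM in DMSO, without overlap. That change was 0.71 ± 0.31 (adjusted p = 0.0855), and it passed the test with the replicate number as a block (0.71, adjusted p = 0.0271). In this comparison same-numbered libraries deviated together, by the check given with the methods.

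HLA-F was near the limit of counting. It had 1.67, 2.09 and 3.82 CPM in wild type DMSO, 4.91, 1.09 and 2.81 CPM at 6 h and 4.31, 2.98 and 4.67 CPM at 24 h. These overlapped, with a log2 fold change of 0.19 ± 0.50 at 6 h (edgeR adjusted p = 0.828) and 0.62 ± 0.48 at 24 h (0.360) against DMSO. HLA-F in the HK2 KO had 3.56, 2.91 and 4.98 CPM at 24 h, against 2.68, 2.38 and 2.5 CPM in DMSO, without overlap (0.61 ± 0.49, 0.381). In the PGP KO the 24 h libraries had 6.91, 2.09 and 1.56 CPM, against 0.803, 1.27 and 1.76 CPM in DMSO. Replicate 1 carried most of that difference of 1.42 ± 0.57 (0.0621), and replicate 3 lay within the DMSO range.

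**Figure D2:**
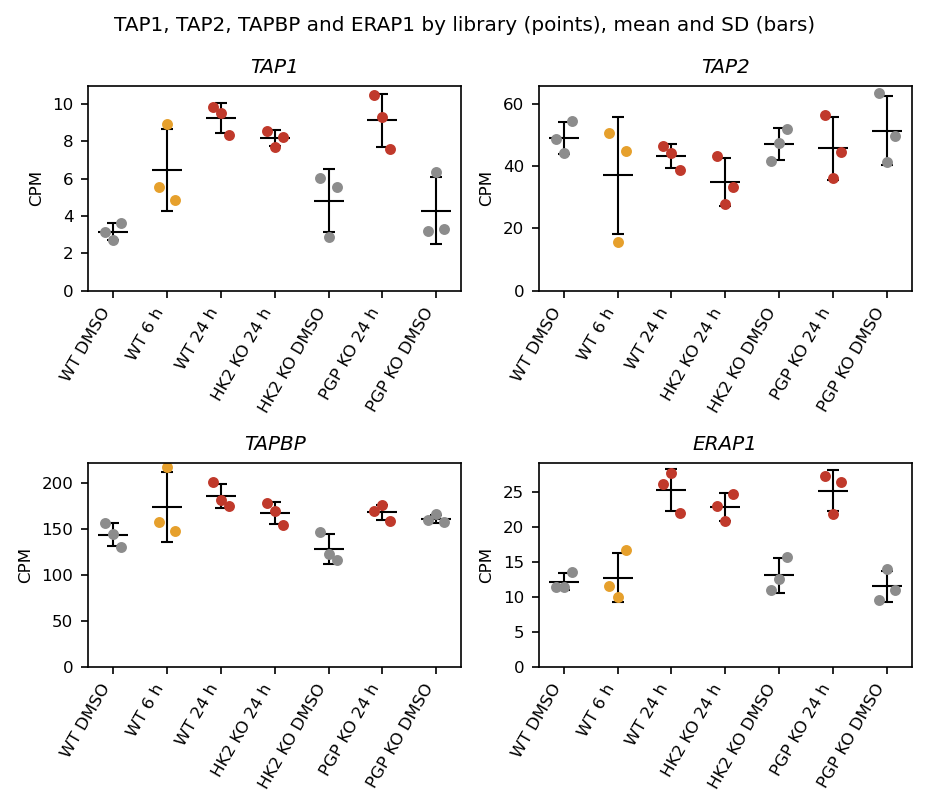
CPM of TAP1, TAP2, TAPBP and ERAP1 in each library (points: grey DMSO, yellow ironomycin for 6 h, red ironomycin for 24 h), with the mean and SD of each group as black bars. ERAP1 and TAP1 at 24 h lie above their own DMSO libraries in all 3 genotypes, and TAP2 overlaps in all 3.

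Of the transporter's subunits, TAP1 (ENSG00000168394) rose and TAP2 (ENSG00000204267) did not pass the test. TAP1 had 3.13, 2.71 and 3.65 CPM in wild type DMSO, 5.55, 8.95 and 4.87 CPM at 6 h and 9.86, 9.52 and 8.36 CPM at 24 h. Both times lay above DMSO without overlap, by 1.00 ± 0.31 at 6 h (edgeR adjusted p = 0.0235) and 1.53 ± 0.30 at 24 h (0.000454). The 6 h call was lost without DMSO replicate 1 or 2 (0.0649 and 0.0851), without 6 h replicate 2 (log2 change 0.70, adjusted p = 0.154) and when the compared groups were fitted alone (0.0791). At 24 h, HK2 KO cells had 8.55, 7.7 and 8.24 CPM, against 6.03, 2.89 and 5.57 CPM in DMSO, a rise of 0.77 ± 0.29 (0.0479). PGP KO cells had 10.5, 9.3 and 7.6 CPM at 24 h, against 3.21, 6.37 and 3.29 CPM in DMSO, a rise of 1.06 ± 0.30 (0.00848). In each KO 1 or more DMSO libraries lay above those of wild type DMSO, and the folds were smaller than in wild type, a difference that did not pass the test.

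The TAP1 calls of the KO lines were fragile. For the HK2 KO, the call was lost without replicate 2 or 3 of DMSO (0.281 and 0.0659, with a log2 change of 0.48 without replicate 2) or without replicate 1, 2 or 3 of 24 h (0.112, 0.0731 and 0.115). DESeq2 (0.0791), RLE size factors (0.0510), no filter (0.0896) and the compared groups alone (0.0540) also lost it. For the PGP KO it was lost without replicate 1 or 3 of DMSO (0.050 and 0.0624).

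TAP2, whose product pairs with that of TAP1, had 48.7, 44.2 and 54.6 CPM in wild type DMSO, 50.6, 15.5 and 45 CPM at 6 h and 46.6, 44.2 and 38.9 CPM at 24 h. Its 24 h and DMSO libraries overlapped (-0.19 ± 0.26, edgeR adjusted p = 0.638). HK2 KO cells had 43.2, 27.9 and 33.4 CPM at 24 h, against 41.7, 47.4 and 52.1 CPM in DMSO (-0.44 ± 0.27, adjusted p = 0.230). In the PGP KO it had 56.5, 36.3 and 44.4 CPM at 24 h, against 63.4, 41.4 and 49.6 CPM in DMSO (-0.16 ± 0.26, 0.679). Each same-numbered pair was lower at 24 h, by log2 differences of -0.17, -0.19 and -0.16, and with the replicate block the change was -0.17 (adjusted p = 0.579). All 3 genotypes thus gave values below 0 that did not pass the test. In the HK2 KO a lower TAP2 passed it with no low-count filter (-0.46, adjusted p = 0.0397) and in the compared groups alone (-0.45, 0.0461).

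TAPBP (ENSG00000231925) encodes tapasin, which holds empty class I molecules beside the transporter until a peptide is loaded. It had 157, 144 and 131 CPM in wild type DMSO, 157, 217 and 148 CPM at 6 h and 201, 182 and 175 CPM at 24 h. The rise at 24 h against DMSO was 0.37 ± 0.13 (edgeR adjusted p = 0.0301), without overlap. HK2 KO cells had 178, 170.0 and 154 CPM at 24 h, against 147, 123 and 116 CPM in DMSO, and rose by 0.38 ± 0.13 (0.0269). PGP KO cells had 169, 176 and 159 CPM at 24 h, against 160.0, 166 and 158 CPM in DMSO, which overlapped (0.06 ± 0.13, 0.765). The difference between the PGP KO response and the wild type response was -0.31 ± 0.18 and did not pass the test (adjusted p = 1.0).

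Both TAPBP calls were weak. The wild type call was lost without replicate 2 or 3 of DMSO (0.0974 and 0.167), without replicate 1, 2 or 3 of 24 h (0.146, 0.0732 and 0.0609) and with no low-count filter (0.0667). The HK2 KO call was lost without replicate 2 or 3 of DMSO (0.124 and 0.165), without replicate 1 or 2 of 24 h (0.117 and 0.0662) and with no low-count filter (0.0583). At 6 h, among the alternatives run, TAPBP passed the test only without replicate 3 of that group (0.39, adjusted p = 0.0414).

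ERAP1 (ENSG00000164307), the aminopeptidase that trims peptides to class I length in the endoplasmic reticulum, rose late and in every genotype. Wild type cells had 11.5, 11.5 and 13.6 CPM in DMSO, 11.5, 10 and 16.7 CPM at 6 h and 26.1, 27.8 and 22 CPM at 24 h. The 6 h libraries overlapped those of DMSO (0.07 ± 0.20, edgeR adjusted p = 0.842), while 24 h lay above both. The rise was 1.04 ± 0.19 against DMSO (0.000204) and 0.98 ± 0.19 against 6 h (0.000999). HK2 KO cells had 23, 20.8 and 24.7 CPM at 24 h, against 10.9, 12.6 and 15.8 CPM in DMSO, a rise of 0.80 ± 0.19 (0.00284). PGP KO cells had 27.2, 21.8 and 26.5 CPM at 24 h, against 9.63, 14 and 11 CPM in DMSO, a rise of 1.12 ± 0.20 (0.000130). No ironomycin library at 24 h came down to the level of a DMSO library.

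**Figure D3:**
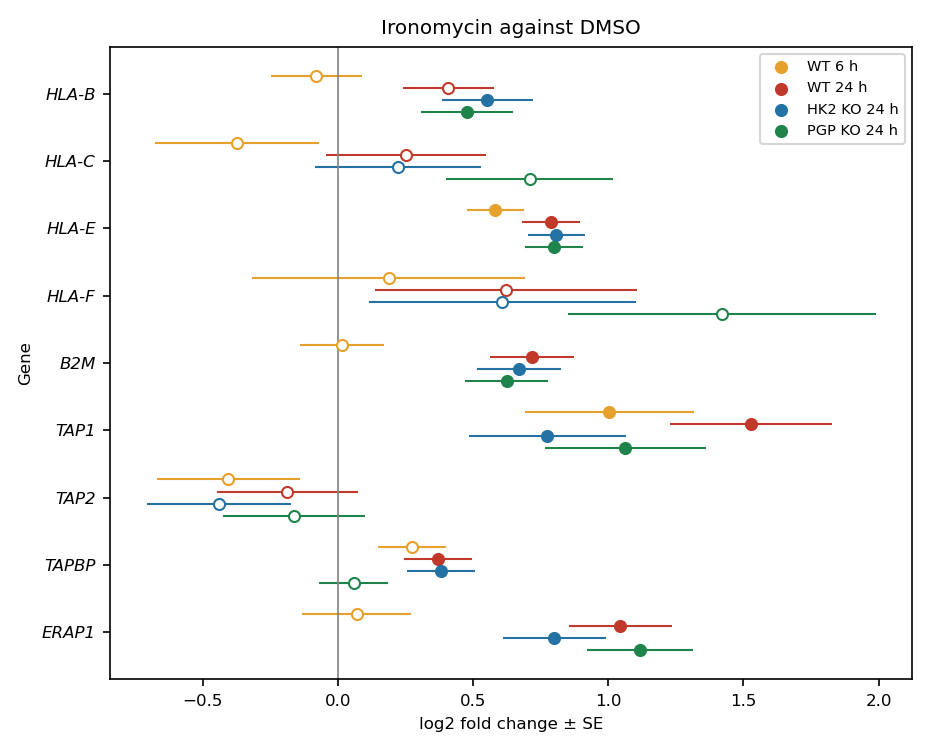
Log2 fold change ± SE of each gene for ironomycin against DMSO of the same genotype (yellow wild type 6 h, red wild type 24 h, blue HK2 KO 24 h, green PGP KO 24 h), with filled points at an edgeR adjusted p under 0.05. HLA-E, B2M, TAP1 and ERAP1 are filled in all 3 genotypes at 24 h, and TAP2 lies below 0 in every comparison shown.

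Counted over the 9 genes, 2 rose, 0 fell and 7 were not called at 6 h in wild type cells. Of all genes tested, 10.9% rose and 11.1% fell in that comparison, and the median log2 fold change was 0.07 over the 9 genes and 0.02 over all genes. The 6 h count was 1 of 9 in the compared groups alone, 1 without DMSO replicate 1, DMSO replicate 2 or 6 h replicate 2, and 3 without 6 h replicate 3. The 6 h libraries lay above DMSO without overlap for these 2 genes, against 17.2% of all genes. At 24 h in wild type cells 5 rose, 0 fell and 4 were not called, against 15.3% of all genes that rose and 14.6% that fell, with a median of 0.62 over the 9 genes and 0.03 over all. In 6 of the 9 genes the 24 h libraries lay above the DMSO libraries without overlap, against 24% of all genes. The 24 h against 6 h comparison has no DMSO pair of its own. There 3 of the 9 rose and 0 fell, against 8.48% of all genes that rose and 8.08% that fell, and 5 lay above without overlap, against 16% of all genes. The 6 genes that were not called ran from 0.10 ± 0.13 for TAPBP (edgeR adjusted p = 0.648) to 0.63 ± 0.30 for HLA-C (0.165), with TAP1 at 0.52 ± 0.28 (0.209). Without 6 h replicate 2 the calls were those of B2M (0.59, adjusted p = 0.0151) and ERAP1 (0.83, 0.00587).

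In the HK2 KO 6 of the 9 rose at 24 h against DMSO and 0 fell, against 15.9% of all genes that rose and 13.5% that fell, with a median of 0.61 over the 9 genes and 0.03 over all. The count was 3 without DMSO replicate 2 or 3 or without 24 h replicate 1, and 7 of the 9 lay above DMSO without overlap, against 23.8% of all genes. Among PGP KO libraries 5 of the 9 rose and 0 fell, against 16.1% of all genes that rose and 15.4% that fell, with a median of 0.71 over the 9 genes and 0.04 over all. That count was 3 without DMSO replicate 1 or 3, and 6 with the replicate block, and 6 lay above DMSO without overlap, against 22.8% of all genes. Of the 9 genes, 4 rose in all 3 genotypes, against 9.91% of all genes, 6 in at least 1, against 22.7%, and 3 in none, against 77.3%. The 4 include TAP1, whose HK2 KO call several alternatives lost. The 9 genes together took 2799 ± 214 CPM at 24 h and 1898 ± 145 CPM in DMSO of wild type cells, 2562 ± 441 CPM in the HK2 KO at 24 h and 1706 ± 104 CPM in its DMSO, and 2534 ± 169 CPM in the PGP KO at 24 h and 1759 ± 74.3 CPM in its DMSO.

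Markers of other cell types also moved at 24 h. The summed level of 4 T and NK markers lay between 30.5 and 34.5 CPM at 24 h in wild type cells, against 9.19 to 12.9 CPM in DMSO. NKG7 carried that rise, while CD3D, CD3E and CD8A had group means of at most 0.620 CPM. The summed level of 4 B-lymphoid markers was 6.42 to 11.7 CPM at 24 h, against 26.3 to 54.5 CPM in DMSO, while its members went opposite ways. IGLL1, a part of the pre-B-cell receptor, fell in all 3 genotypes, with a log2 change of -3.61 ± 0.37 in wild type (edgeR adjusted p = 1.32e-07), -2.69 ± 0.33 in the HK2 KO (2.22e-06) and -3.35 ± 0.34 in the PGP KO (1.19e-07). PAX5, the B-lineage transcription factor, had 5.69 ± 2.22 CPM at 24 h and 1.4 ± 0.734 CPM in DMSO in wild type cells and rose in all 3 genotypes, by 1.99 ± 0.44 in wild type (0.00136), 2.32 ± 0.48 in the HK2 KO (0.000826) and 2.96 ± 0.51 in the PGP KO (9.76e-05). The lowest group mean of PAX5 was 0.789 CPM. A gene this low can pass the low-count filter through the groups where it is high, which favours a rise. CD79A and MS4A1 had group means of no more than 0.464 CPM. In the KO lines the T and NK sum was 27.1 to 37.4 CPM at 24 h, against 8.29 to 15.4 CPM in DMSO, and the B-lymphoid sum was 9.57 to 13.1 CPM in the HK2 KO and 8.37 to 15.7 CPM in the PGP KO at 24 h, against 23.4 to 45.9 CPM in HK2 KO DMSO and 35.04 to 63.4 CPM in PGP KO DMSO. Of the 8 myeloid markers, 6 were tested. MPO, the myeloperoxidase gene, fell in all 3 genotypes, and the other 5 were not called at 24 h in any. It had 5.51 ± 2.28 CPM at 24 h and 12.6 ± 0.624 CPM in DMSO in wild type cells (-1.18 ± 0.25, edgeR adjusted p = 0.00106), with changes of -1.10 ± 0.26 in the HK2 KO (0.00239) and -1.53 ± 0.25 in the PGP KO (5.85e-05). LYZ, the lysozyme gene, was too low to be tested, with 2 counts over the 24 h libraries and 17 over the DMSO libraries of wild type cells. Erythroid markers summed to at most 5.65 CPM. Of the epithelial markers EPCAM and KRT18 were at 0 in every group, while KRT8 had 10.3 ± 1.25 CPM at 24 h and 5.35 ± 1.27 CPM in DMSO in wild type cells (0.95 ± 0.30, 0.0190), a rise lost without DMSO replicate 1 or 3 or 24 h replicate 2 or 3 (0.0576 to 0.105), and was not called in the HK2 KO (0.40 ± 0.30, 0.343) or the PGP KO (0.62 ± 0.31, 0.133). The part of these shifts in the class I results was not tested.

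In DMSO, no class I gene passed the test between either KO and wild type. For the HK2 KO against wild type, the log2 differences ran from -0.39 ± 0.30 for HLA-C to 0.57 ± 0.32 for TAP1, and edgeR and DESeq2 called 0 of the 9 (0 at an unadjusted p under 0.05, and 0.00861% of all genes called). HLA-B lay lower in all 3 HK2 KO libraries, 627, 553 and 562 CPM, than in wild type, 802, 643 and 694 CPM, a non-overlap that 7.82% of all genes showed. For the PGP KO against wild type, the differences ran from -0.97 ± 0.59 for HLA-F to 0.44 ± 0.33 for TAP1, again with 0 of the 9 called by edgeR or DESeq2 (0 at an unadjusted p under 0.05; 0% of all genes called, and 648 genes at an unadjusted p under 0.05). TAPBP lay higher in all 3 PGP KO libraries, 160.0, 166 and 158 CPM, than in wild type, 157, 144 and 131 CPM, a non-overlap that 6.43% of all genes showed, with a difference of 0.16 ± 0.13. A p that misses the threshold does not show that the levels were the same.

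**Figure D4:**
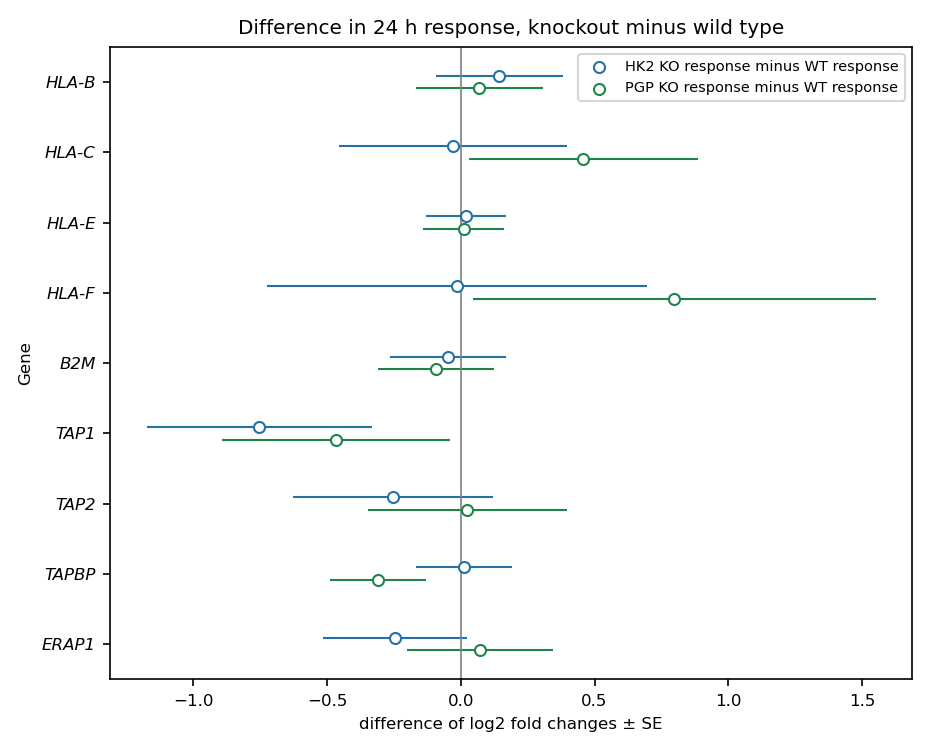
Difference between the 24 h log2 fold change of each KO and that of wild type, ± SE (blue HK2 KO, green PGP KO), with all points open because none had an edgeR adjusted p under 0.05. TAP1 lies furthest below 0 in both KO lines and HLA-F in the PGP KO furthest above.

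The response to 24 h of ironomycin was then compared between genotypes. The HK2 KO response minus the wild type response ran from -0.75 ± 0.42 for TAP1 to 0.14 ± 0.24 for HLA-B, and the PGP KO response minus the wild type response ran from -0.47 ± 0.43 for TAP1 to 0.80 ± 0.75 for HLA-F. In both comparisons edgeR called 0 of the 9 genes and 0% of all genes, with 0 of the 9 at an unadjusted p under 0.05, and DESeq2 called 0 of all genes. At an unadjusted p under 0.05 there were 267 genes for the HK2 KO and 221 for the PGP KO. HLA-F in the PGP KO rested on 1 library and came to -0.16 without 24 h replicate 1. A p that misses the threshold does not show that the responses were the same. Both comparisons share the wild type libraries.

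Of 7 class I and class I-like genes listed beside the 9, 5 were tested. In wild type cells at 24 h 1 rose and 0 fell (list median -0.01), against 15.3% of all genes that rose and 14.6% that fell. The 1 that rose was MR1, which presents vitamin metabolites to MAIT cells, with a log2 change of 0.87 ± 0.16 (edgeR adjusted p = 0.000265). MR1 also rose in the HK2 KO (0.94 ± 0.16, 0.000108) and the PGP KO (1.02 ± 0.17, 5.77e-05). At 6 h in wild type cells 2 of the 5 rose and 1 fell, against 10.9% of all genes that rose and 11.1% that fell. MR1 rose by 1.07 ± 0.16 (5.80e-05) and MICA, a stress-induced ligand of the receptor NKG2D, by 1.08 ± 0.37 (0.0381), while CD1D, which presents lipids, had a change of -1.46 ± 0.48 (0.0324). The MICA call was lost with DESeq2 (0.0573) and the compared groups alone (0.0798), and the CD1D call in the compared groups alone (0.0733). Without 6 h replicate 2 both were lost (0.163 for MICA and 0.115 for CD1D). The MICA call was also lost without any DMSO replicate or 6 h replicate 1 (edgeR adjusted p 0.0656 to 0.108). That of CD1D was also lost without DMSO replicate 3 (0.191) or 6 h replicate 1 (0.0838).

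Other steps of the pathway were counted in the same way, and the plot of lists at 24 h shows each gene. Their counts stand against 15.3% of all genes that rose and 14.6% that fell in wild type cells at 24 h. Of 8 further peptide loading and quality control genes, 1 rose, 1 fell and 6 were not called in wild type cells at 24 h (median 0.19), which is near those shares. TAPBPL, a second peptide editor, had 6.57 ± 2.39 CPM at 24 h and 3.01 ± 1.52 CPM in DMSO (1.10 ± 0.37, edgeR adjusted p = 0.0280), a call lost without DMSO replicate 1 (0.148) or 24 h replicate 2 (0.189). BCAP31, which helps move class I molecules out of the endoplasmic reticulum, fell by 0.46 on the log2 scale to 91.3 ± 2.31 CPM at 24 h, against 126 ± 1.31 CPM in DMSO (0.00122). In the HK2 KO 2 of the 8 rose and 1 fell, against 15.9% and 13.5% of all genes. CANX, the chaperone calnexin, rose by 0.52 ± 0.11 (0.000689) and HSPA5, the chaperone BiP, by 0.66 ± 0.17 (0.00478). In wild type cells they had 0.23 ± 0.10 (0.104) and 0.29 ± 0.17 (0.208), and no difference between the 2 responses was called for any gene. HSPA5 had 1442 ± 224 CPM at 24 h in the HK2 KO and 1548 ± 247 CPM in wild type cells. In DMSO it had 912 ± 166 and 1267 ± 82.1 CPM. In the PGP KO 0 of the 8 rose and 1 fell, against 16.1% and 15.4% of all genes. Of 6 further trimming peptidases 0 rose and 1 fell (median -0.02): THOP1, which degrades peptides in the cytosol, had 62.1 ± 1.28 CPM at 24 h and 96.7 ± 7.5 CPM in DMSO (-0.64 ± 0.12, 0.000312). ERAP1 was thus the single trimming gene of those tested that rose.

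The proteasome makes the peptides. Of 5 immunoproteasome subunits and activator genes, 4 were tested, 0 rose and 2 fell in wild type cells at 24 h (median -0.20). Of all genes, 15.3% rose and 14.6% fell in that comparison. PSMB8, a catalytic subunit of the immunoproteasome, had 86.2 ± 3.74 CPM at 24 h and 122 ± 1.42 CPM in DMSO (-0.50 ± 0.15, edgeR adjusted p = 0.0142). PSME2, a subunit of the proteasome activator PA28, had 176 ± 14.9 CPM at 24 h and 246 ± 2.45 CPM in DMSO (-0.48 ± 0.11, 0.00175). PSMB9, another catalytic subunit of the immunoproteasome, lay above DMSO without overlap but was not called (0.55 ± 0.27, 0.131), and passed the test in the compared groups alone (0.0415). Of the 3 constitutive catalytic subunits 0 rose and 2 fell (median -0.35), with log2 changes of -0.48 ± 0.11 for PSMB6 (0.00234) and -0.35 ± 0.10 for PSMB5 (0.00747). In the HK2 KO 1 of the 4 immunoproteasome genes and 0 of the 3 constitutive subunits fell, against 13.5% of all genes, and in the PGP KO 1 of the 4 and 3 of the 3 did, against 15.4%. No gene of either list rose in a 24 h comparison with DMSO.

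**Figure D5:**
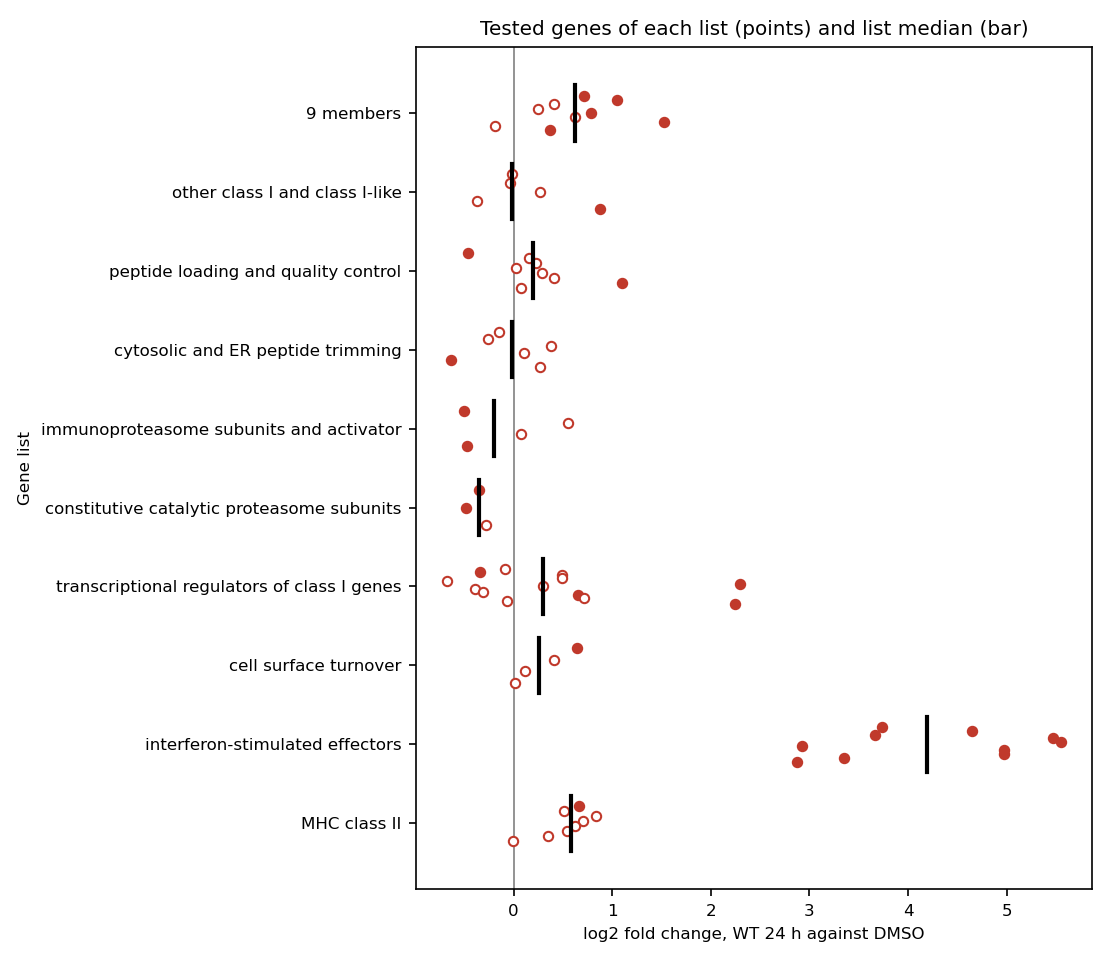
Log2 fold change of each tested gene at 24 h against DMSO in wild type cells, by gene list (points, filled at an edgeR adjusted p under 0.05), with the median of the plotted genes as a black bar. The 9 class I genes have a median of 0.62 and the constitutive proteasome subunits one of -0.35. The 10 interferon-stimulated genes plotted have one of 4.19, after leaving out 4 with 3 or fewer counts in DMSO.

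Of 13 regulators of class I transcription, 3 rose, 1 fell and 9 were not called at 24 h in wild type cells (median 0.30), against 15.3% of all genes that rose and 14.6% that fell. STAT2 had 64.1 ± 4.04 CPM at 24 h and 13.4 ± 3.03 CPM in DMSO (2.25 ± 0.16, edgeR adjusted p = 1.27e-09). IRF9, which joins STAT2 in the factor that binds the ISRE, had 7.98 ± 1.62 CPM at 24 h and 1.61 ± 0.232 CPM in DMSO (2.30 ± 0.39, 9.25e-05). In DMSO of any genotype IRF9 had at most 9 counts per library. It thus passed the low-count filter through the ironomycin groups, which favours a rise. NLRC5, the coactivator of class I promoters, was not called (-0.39 ± 0.18, 0.0978), with 18.9 ± 1.28 CPM at 24 h and 24.8 ± 2.85 CPM in DMSO. NLRC5 was not called at 24 h in either KO. Its 24 h libraries lay below those of DMSO without overlap in each genotype, but the share of all genes that did so was not counted. The ranges were 17.5 to 19.9 against 21.5 to 26.9 CPM in wild type cells. They were 15.4 to 18.1 against 20.8 to 24.3 CPM in the HK2 KO and 17.7 to 21.8 against 25.2 to 29.2 CPM in the PGP KO.

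RFX5, a subunit of the complex that NLRC5 joins, rose by 0.65 ± 0.23 in wild type cells at 24 h (edgeR adjusted p = 0.0326). That call was lost with DESeq2 (0.0558), with no low-count filter (0.0800) and without any DMSO replicate or replicate 2 or 3 of 24 h (0.0552 to 0.161). CREB1, which binds the TGACG core, was the 1 regulator that fell (-0.34 ± 0.12, 0.0399), a call lost with no filter (0.144) and without any DMSO replicate or replicate 2 or 3 of 24 h (0.0697 to 0.103). In the HK2 KO 3 of the 13 rose and 0 fell at 24 h against DMSO, against 15.9% of all genes that rose. In the PGP KO 4 rose and 0 fell, against 16.1% of all genes that rose. STAT2 and IRF9 were among these. STAT2 rose by 2.11 ± 0.16 in the HK2 KO (edgeR adjusted p = 6.05e-09) and 2.15 ± 0.16 in the PGP KO (3.89e-09). IRF9 rose by 2.06 ± 0.44 in the HK2 KO (0.00110) and 2.72 ± 0.41 in the PGP KO (2.76e-05).

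At 6 h in wild type cells 4 of the 13 regulators rose and 1 fell, against 10.9% of all genes that rose and 11.1% that fell. At that time HLA-E and TAP1 were the called class I genes. STAT2 had 41.1 ± 2.96 CPM at 6 h and 13.4 ± 3.03 CPM in DMSO (1.61 ± 0.17, edgeR adjusted p = 3.91e-07). IRF9 rose by 1.51 ± 0.41 (0.0107), a call lost without 6 h replicate 2 (0.0658). IRF1, which binds ISRE-like motifs of class I promoters, rose by 0.79 ± 0.20 (0.00637) and came to 0.46 (0.0660) without that library. IRF2 rose by 0.70 ± 0.21 (0.0192), a call lost without DMSO replicate 3 (0.121) or 6 h replicate 1 (0.125). IRF8, a myeloid interferon regulatory factor, fell by 1.42 on the log2 scale (0.0125), a call lost without DMSO replicate 3 (0.0783). In the compared groups alone the calls of IRF1, IRF2 and IRF8 were lost as well (0.0558, 0.0918 and 0.0900).

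Interferon-stimulated effector genes and class II genes were set beside the class I genes for scale. Of 16 interferon-stimulated genes, 14 were tested, and all 14 rose at 24 h in each of the 3 genotypes. Of all genes, 15.3% rose in wild type cells, 15.9% in the HK2 KO and 16.1% in the PGP KO. At 6 h in wild type cells 3 rose, against 10.9% of all genes. Of the 14, 4 had 3 or fewer counts in wild type DMSO, OAS1 had 1 to 6 per library and IFIT3 2 to 7. Genes this low in DMSO pass the low-count filter through the groups where they are high, which fixes a rise in advance. The count of 14 is thus partly set by the filter. XAF1, an apoptosis-linked interferon target, had 458 ± 107 CPM at 24 h and 62.5 ± 5.55 CPM in DMSO of wild type cells (2.87 ± 0.19, edgeR adjusted p = 5.18e-10). IFI6 rose by 3.67 ± 0.41 (6.04e-07), IFIT3 by 5.55 ± 0.64 (7.31e-07) and OAS1 by 4.97 ± 0.60 (1.40e-06). Each of these 4 changes exceeded those of the 9 class I genes in the same libraries. Of 10 class II genes, 8 were tested and 1 rose in wild type cells at 24 h (median 0.58), against 15.3% of all genes. In each KO 2 of the 8 rose at 24 h, against 15.9% of all genes in the HK2 KO and 16.1% in the PGP KO. The wild type call was that of CD74, the class II chaperone, with 0.67 ± 0.19 (edgeR adjusted p = 0.0107). It was lost without DMSO replicate 2 or 3 or 24 h replicate 1 (0.0823, 0.0805 and 0.0766).

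The last list held genes of class I turnover at the cell surface. Of 5, 4 were tested and 1 rose in wild type cells at 24 h (median 0.26), against 15.3% of all genes. MARCHF9, a membrane ubiquitin ligase that can remove class I molecules from the surface, had 18 ± 1.01 CPM at 24 h and 11.5 ± 0.579 CPM in DMSO (0.65 ± 0.16, edgeR adjusted p = 0.00306). MARCHF9 was not called in the HK2 KO (0.40 ± 0.16, 0.0666) or the PGP KO (0.06 ± 0.16, 0.801). In the HK2 KO it passed the test with the replicate number as a block (0.40, edgeR adjusted p = 0.0483). The 1 gene of the 4 that rose in the HK2 KO was SUSD6 (0.74 ± 0.20, 0.00788), against 15.9% of all genes, a call lost without DMSO replicate 3 (0.05002), and 0 rose in the PGP KO.

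The 9 genes differed in how closely each followed their common pattern over the 21 libraries. Pearson's r of a gene's log2 CPM with the mean of the 9 standardised profiles was 0.934 for B2M, 0.918 for HLA-B, 0.897 for ERAP1 and 0.807 for HLA-E. It was lower for HLA-F (0.717), TAP1 (0.713) and HLA-C (0.692), and lowest for TAPBP (0.391) and TAP2 (0.151). Each gene is part of the mean it is set against, and the libraries share their 7 groups. Over 9135 other genes that averaged 5 CPM or more, the median r was 0.0353. The genes most like the mean were HERC5 (0.955), an interferon-induced ligase for ISG15, OCSTAMP (0.951), a membrane protein of osteoclast fusion, TNFAIP2 (0.946), a gene induced by tumour necrosis factor, PRNP (0.946), the prion protein gene, and SNTB1 (0.945), a syntrophin. HERC5 had group means of 31.9 ± 12.8 CPM at 24 h and 2.35 ± 0.411 CPM in DMSO of wild type cells.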

How the data were processed

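Per the labels' protocols, RNA was prepared with Qiagen RNeasy and libraries with the Lexogen QuantSeq 3′ kit, which reads transcript ends. Per the submitters' processing notes, bcl2fastq 2.20.0.422, HISAT2 and HTSeq were used with build hg19; the annotation release and strand setting are not given in the sources used here. The deposited values are raw counts per Ensembl gene for 21 libraries, with no normalization by the authors.

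The 9 genes and the gene lists were chosen with earlier results of these data known. The test was that of edgeR 4.0.16 under R 4.3.3, with TMM factors (0.958 to 1.05), filterByExpr by group (minimum count 10, minimum total 15), 1 quasi-likelihood fit of the 21 libraries with a mean per group, and Benjamini-Hochberg adjustment over 11610 genes in each of 9 comparisons. A gene was called at an adjusted p under 0.05; no p was adjusted over a list alone. CPM use TMM-scaled library sizes. Named beyond the 9 were HK2, PGP, up to 4 called genes per list by adjusted p, regulators called in wild type cells, NLRC5 and the 5 genes most like the mean of the 9. MR1, MICA and CD1D at 6 h, PSMB9, CANX, HSPA5, SUSD6 and the markers PAX5, IGLL1, NKG7, MPO, LYZ and KRT8 were added after their values were seen. A few genes of the lists are not reported here and were left out of the list counts, medians and sums. Alternatives were size factors by RLE, DESeq2 1.42.0, omitting the low-count filter, blocking on the replicate number, fitting only the groups compared, and leaving out each library in turn. In the PGP KO, same-numbered 24 h and DMSO libraries deviated together from their groups (r = 0.243, 0.164 and 0.247, limit 0.1). These numbers were therefore taken to pair the libraries in that comparison, but the labels do not say what the numbers mark. The main fit did not use this pairing, and the block was 1 replicate term shared by all 21 libraries. No library was a copy of another. The pipeline was tested on simulated data. Promoters are from RefSeq (GRCh38.p14) and transcript ends from GENCODE 29, used for sequence and names only. Figures were drawn with matplotlib 3.10.9. The depth per library limits genes with few counts, such as HLA-F and TAP1, most.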

Additional observations from a re-analysis of the deposited data

How the results depend on the processing

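Of 21 calls of the 9 genes in the 5 ironomycin comparisons, 13 held under every alternative run and 16 under every alternative that kept all libraries, and 0 reversed. The 13 were those of HLA-E, B2M and ERAP1 and that of TAP1 in wild type cells at 24 h against DMSO. With a library left out, the number of the 9 genes called ranged from 1 to 3 at 6 h against DMSO, 4 to 5 at 24 h against DMSO, 2 to 4 at 24 h against 6 h, 3 to 6 in the HK2 KO and 3 to 6 in the PGP KO, and in the compared groups alone it was 1 at 6 h. With the replicate block the counts were 2 at 6 h, 6 at 24 h and 4 at 24 h against 6 h. They were 6 in the HK2 KO, 6 in the PGP KO and 0 in the 4 comparisons of a KO with wild type. Outside the PGP KO the lowest correlation of same-numbered libraries (-0.0394 to 0.0835) was under the limit of 0.1. That does not show that the numbers shared no effect. Against DMSO the values were 0.0491, 0.164 and 0.347 for wild type at 6 h and 0.166, 0.0504 and 0.236 at 24 h. For the HK2 KO at 24 h they were 0.0396, -0.0394 and 0.121.

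Directions reversed for values that were not called. B2M at 6 h was -0.0028 with no low-count filter, and lay between -0.056 and 0.154 with a library left out. In the same way HLA-B at 6 h ran from -0.276 to 0.164, HLA-C from -0.727 to 0.0251, HLA-F from -0.368 to 0.634 and ERAP1 from -0.175 to 0.210. For 24 h against 6 h, TAP2 ran from -0.143 to 0.486 and TAPBP from -0.037 to 0.288. The HLA-F difference between the PGP KO and wild type responses ran from -0.162 to 1.17. The cause was not tested. HLA-C passed the test at 24 h against 6 h with no filter (0.00264), with the block (0.0327) and without 6 h replicate 3 (0.0416), and in the PGP KO with no filter (0.000279) and in the compared groups alone (0.0125). HLA-F passed it in the PGP KO with no filter (0.0210) and without 24 h replicate 2 (0.0440) or 3 (0.0224).

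Over all genes, 2556 were called at 6 h and 1212 in the compared groups alone. At 24 h against 6 h 1922 were called, 749 in the compared groups alone and 1271 without 24 h replicate 3. For the HK2 KO against wild type in DMSO the count was 1, but 59 with no filter, 15 with DESeq2, 19 with the block, 17 in the compared groups alone and 0 to 8 with a library left out. For the PGP KO in DMSO it was 0, 96 with no filter and 2 in the compared groups alone. For the response differences, 0 became 17 (HK2 KO) and 18 (PGP KO) with no filter, and 1 (PGP KO) in the compared groups alone. Depth limits HLA-F and TAP1 most.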
